A study of Mus musculus with 6 samples.

Results

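The genes described here are 53 genes that set position and pattern in mesenchyme, from a list chosen with earlier results of these data known. By name it holds homeobox, paired box, T-box, forkhead, basic helix-loop-helix (bHLH) and zinc finger transcription factor genes outside the Hox clusters, plus the coactivator gene Eya1. All 53 symbols matched 1 gene each among the 55471 genes of the count table. They were measured by polyA RNA sequencing in 10T1/2 cells, a mouse embryonic fibroblast line, in 3 libraries with the genotype label Ranbp2 KO and in 3 WT libraries, all from untreated cultures in serum-containing medium. The Ranbp2 KO cells were made with CRISPR/Cas9, per the design text, which calls the 3 samples of each group biological replicates and says that deletion was examined by qPCR, western blot and staining, none of which was used here. Whether the KO cells are 1 clone or several is not stated in the labels, so differences between clones and the effect of the genotype cannot be told apart.

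Ranbp2 encodes a large protein on the cytoplasmic side of the nuclear pore. Its mRNA stood at 294, 289 and 293 CPM in KO-labelled libraries, against 219.8, 250.1 and 249 CPM in WT libraries. The log2 difference was 0.28 (SE 0.07, adjusted p = 0.012) by edgeR's quasi-likelihood test, and the exact two-sided permutation test gave p = 0.1, the smallest that 3 against 3 libraries allow. The level was therefore higher and not lower in the libraries labelled KO. Gene counts cannot show an edit that spares the mRNA level, so these libraries are called KO-labelled throughout, and higher or lower means relative to WT.

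Total expected counts ran from 32072817 to 39378190 in the KO-labelled and from 41354198 to 46321967 in the WT libraries. Values are given as CPM, counts scaled to a common library total, on library sizes scaled with TMM factors, the trimmed mean of M values that edgeR uses to set libraries on a common scale. Differences are on the log2 scale, and calls were made at an adjusted p under 0.05, with Benjamini-Hochberg adjustment over all 15454 genes tested in edgeR. Where levels of different genes are set side by side, CPM was divided by the length of the union of a gene's exons in kilobases. All 12 fibroblast markers were tested, 5 were higher and 3 lower, beside 17.6% and 21.3% of all genes tested. The higher ones were Dcn, Lum, Fn1, Col3a1 and Pdgfra, with log2 differences of 1.98, 2.23, 1.31, 0.94 and 0.36. The lower ones were Thy1, Pdgfrb and Col1a1, at -6.76, -0.37 and -0.43. The summed level of the 12 markers was 27444 to 34553 CPM in KO-labelled and 22133 to 25665 CPM in WT libraries. Among them Vim stood at 5340.3 ± 117 CPM in KO-labelled and 5329.8 ± 138 CPM in WT libraries, whereas the surface marker Thy1 stood at 0.534 ± 0.216 CPM in KO-labelled and 58.3 ± 2.45 CPM in WT libraries. The haematopoietic markers summed to 1.69 to 2.77 CPM in KO-labelled and 1.70 to 2.35 CPM in WT libraries, with Adgre1 at 0. The 5 muscle markers summed to 8.46 to 12.5 CPM in KO-labelled and 6.68 to 7.03 CPM in WT libraries. Of these, Myod1 and Myog had no count. Acta1, the largest part of the sum, stood at 7.94 ± 1.66 CPM in KO-labelled and 6.11 ± 0.156 CPM in WT libraries. Its log2 difference of 0.38 (SE 0.15, adjusted p = 0.0805) did not pass the test. Des, the muscle filament gene desmin, stood at 2.65 ± 0.382 CPM in KO-labelled and 0.758 ± 0.126 CPM in WT libraries. The log2 difference of Des was 1.80 (SE 0.22, adjusted p = 1.80e-04). The summed level of 7 epithelial markers was 6.19 to 9.23 CPM in KO-labelled and 2.16 to 2.65 CPM in WT libraries, most of it Cdh1. Of the other epithelial markers, Krt8 had 18 against 2 counts over the KO-labelled and WT groups, a KO-labelled to WT ratio of 10.7 (95% counting interval 2.57 to 95.4). Krt14 had 10 against 21 counts in the same order, Krt5 7 against 2, Cldn7 6 against 4, Krt18 4 against 0 and Epcam 1 against 1. The 6 neural and neural crest markers summed to 4.63 to 5.43 CPM in KO-labelled and 16.5 to 19.2 CPM in WT libraries, most of it Tubb3 in WT, while Sox10 had 0.0261, 0 and 0 CPM in KO-labelled libraries, against 0, 0 and 0.0238 CPM in WT libraries. The 6 endothelial markers summed to 20.9 to 24.8 CPM in KO-labelled and 35.3 to 39.5 CPM in WT libraries, with Tek as the main part. Pecam1 went the other way, with 89 against 44 counts over the KO-labelled and WT groups. Its log2 difference of 1.21 (SE 0.52, adjusted p = 0.091) was not called. The other 4 endothelial markers had too few counts to be tested. Kdr had 2 against 38 counts in the same order, a WT to KO-labelled ratio of 15.9 (95% counting interval 4.12 to 136). Cdh5 had 1 against 17, a ratio of 14.2 (2.23 to 595), Emcn 3 against 1 and Tie1 1 against 0. The part of all these cell type markers in the results below was not tested. In bulk RNA, fewer cells that express a gene and less RNA per cell cannot be told apart.

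Connective tissue cells of the embryo keep a record of where in the body they arose in the set of patterning transcription factors they express. Homeobox proteins of the TALE class, such as Meis and Pbx, bind DNA together with Hox proteins. T-box, paired-type, Pax, forkhead and zinc finger factors mark particular fields such as limb bud, face, body wall, kidney or heart, while Twist, Snail and Zeb proteins hold cells in the mesenchymal state. Many of these genes stay active in cultured fibroblasts.

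Of the 53 genes, 42 passed the filter on low counts and were tested. Of these, 8 rose, 19 fell and 15 did not pass the test. Over all genes tested, 38.9% were called, 17.6% higher and 21.3% lower. Sall1, Gsc and Tbx20 had no count in any KO-labelled library, so their losses are known only as bounds and are not ranked. Among the other genes Pax3 and Msx2 fell most. The median log2 difference of the 42 was -0.14, against 0.01 over all genes tested. Setting the 3 genes without counts to their bounds cannot move this median, because the bounds lie below it. A gene could enter the test through the group in which it was high, so these counts are a description of the tested genes and not of the whole list. The list itself was chosen with earlier results of these data known. The values of the groups did not overlap for 31 of the 42, beside 51.4% of all genes tested.

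Whole chromosomes also differed, with median log2 differences of 0.29 on chromosome 1 and -0.28 on chromosome 13. In a test against the median of each gene's own chromosome, added after the data were seen, 6 of the 8 genes called higher and 17 of the 19 called lower kept their call. Those that did not were Foxc1 (-0.01, adjusted p = 0.922), Snai1 (-0.26, 0.062), Six4 (0.13, 0.236) and Eya1 (0.70, 0.0675). Conversely, Prrx1 (-0.41, 0.0029) and Osr1 (-0.25, 0.0169) were called lower and Foxd1 (0.30, 0.0243) higher in that test. Six2 stood at -0.65 and Foxp1 at -0.39 relative to their chromosomes, further from 0 than in the test without this correction, and Pbx2, Pbx3, Tbx18, Twist2 and Zeb2 changed sign without a call in either test.

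**Figure D1:**
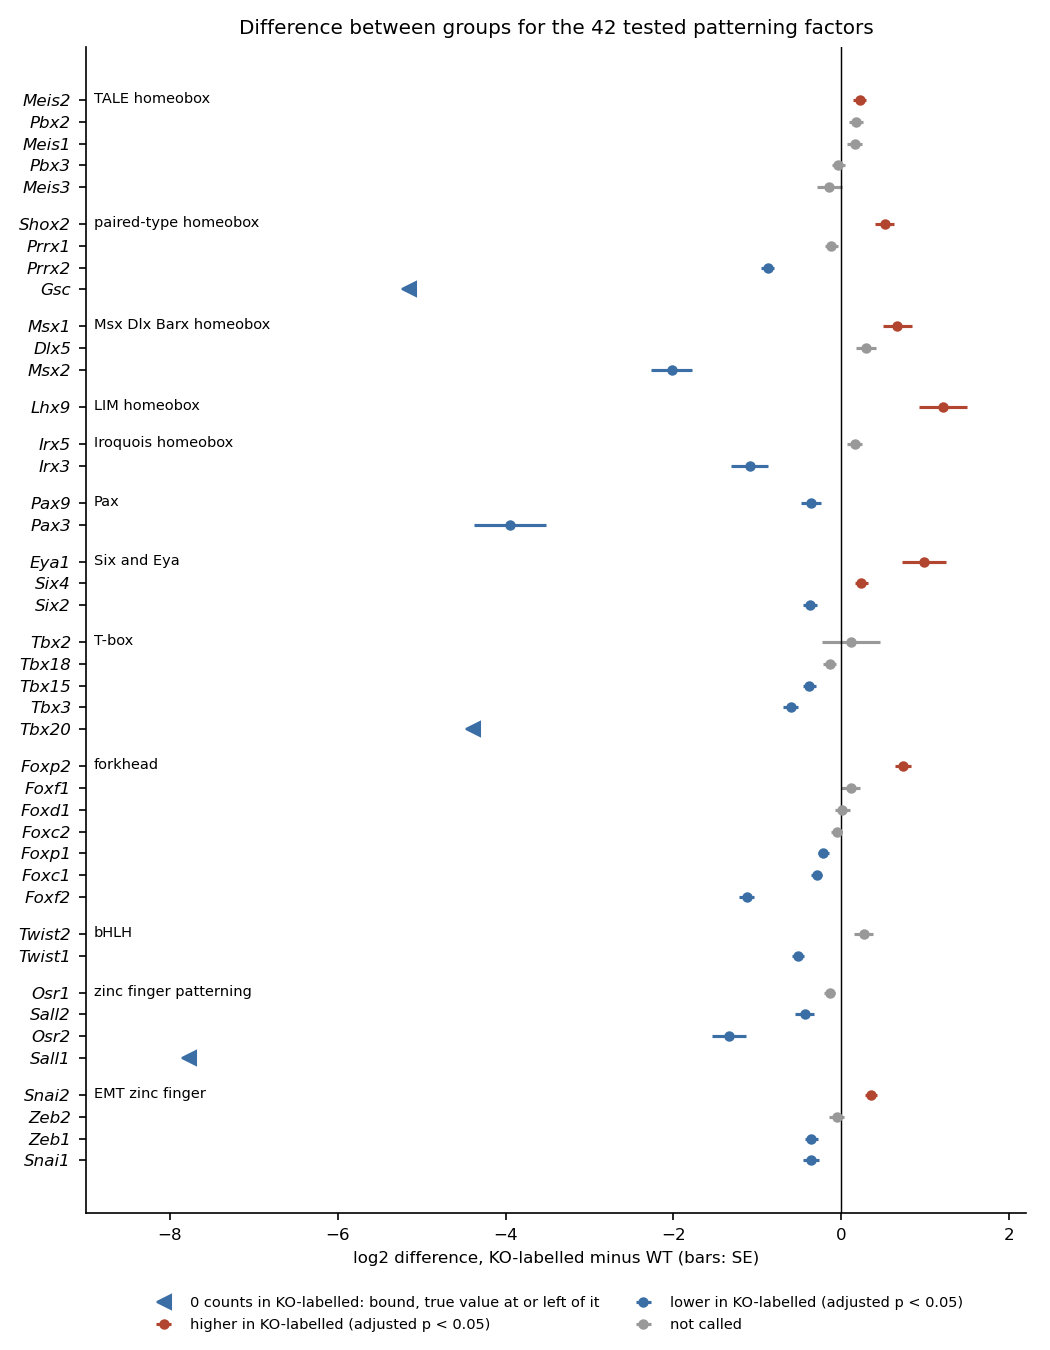
Log2 difference between KO-labelled and WT libraries (x axis, bars show the SE, 3 libraries a group) for the 42 tested patterning factors, grouped by family. The triangles of Sall1, Gsc and Tbx20 are bounds from a floor of 3 counts, and the other factors lie between -3.95 for Pax3 and 1.21 for Lhx9.

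A change of at least 2-fold was called for 8 genes that fell and 1 that rose, beside 5.73% and 4.41% of all genes tested, 10.1% in either direction. Sall1 (ENSMUSG00000031665, chromosome 8, 89027235 to 89044162, minus strand) is a zinc finger repressor needed for kidney and limb development. Of the genes without a KO-labelled count it had the largest bound on its loss. Its level was 0, 0 and 0 CPM in KO-labelled libraries, against 6.51, 5.68 and 5.94 CPM in WT libraries. These are 0 against 781 counts over the groups, at least 218-fold lower in KO-labelled libraries against a floor of 3 counts over the group (adjusted p = 9.19e-07). Gsc, the homeobox gene goosecoid of the gastrula organizer and later of the face and limbs, had 0, 0 and 0 CPM in KO-labelled libraries, against 1.30, 1.04 and 0.594 CPM in WT libraries. It was lost from a low level, with 0 against 127 counts, at least 35.5-fold lower (adjusted p = 2.45e-04). Tbx20, a T-box gene of heart development, had 0, 0 and 0 CPM in KO-labelled libraries, against 0.386, 0.631 and 0.713 CPM in WT libraries. With 0 against 75 counts it was at least 21.0-fold lower (adjusted p = 4.63e-04). Of all genes tested, 0.188% had no count in any KO-labelled library.

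The bases just before the start sites of 3 of the 8 genes that fell at least 2-fold are shown for a property that the choice of genes did not use, their content of CG dinucleotides. They are the genes for which the start site in RefSeq's table and that of the GENCODE annotation coincide. Each run holds the 250 bases before that start on GRCm38.p6, from RefSeq, 5′ to 3′ on the gene's strand, with CG dinucleotides in capitals. The table lists 3 start sites for Sall1, of which the one at the annotated start is shown, and the window of Foxf2 overlaps the gene model 1700018A04Rik.
Sall1, chr8:89044163-89044412, minus strand: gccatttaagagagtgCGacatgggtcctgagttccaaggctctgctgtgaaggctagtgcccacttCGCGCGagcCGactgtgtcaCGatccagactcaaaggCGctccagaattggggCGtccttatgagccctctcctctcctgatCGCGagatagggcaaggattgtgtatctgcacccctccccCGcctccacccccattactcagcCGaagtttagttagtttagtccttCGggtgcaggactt
Tbx20, chr9:24774304-24774553, minus strand: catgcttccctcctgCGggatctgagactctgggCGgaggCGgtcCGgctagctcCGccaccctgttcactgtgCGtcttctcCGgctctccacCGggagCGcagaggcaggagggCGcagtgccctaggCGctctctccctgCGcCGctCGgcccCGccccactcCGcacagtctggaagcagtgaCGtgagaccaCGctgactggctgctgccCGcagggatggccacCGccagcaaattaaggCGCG
Foxf2, chr13:31625566-31625815, plus strand: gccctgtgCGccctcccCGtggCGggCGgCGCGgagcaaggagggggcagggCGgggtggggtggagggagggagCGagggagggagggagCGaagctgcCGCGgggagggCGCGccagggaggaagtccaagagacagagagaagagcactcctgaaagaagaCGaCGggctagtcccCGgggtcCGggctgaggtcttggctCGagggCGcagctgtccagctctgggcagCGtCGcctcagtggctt

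These windows held 13 CG dinucleotides before Sall1, 22 before Tbx20 and 21 before Foxf2. The median was 6 over the 32851 windows of the table and 13.5 over the 42 windows of the 33 patterning factors that matched by symbol. As many CG as before Sall1 were found in 31.5% of all windows, as many as before Tbx20 in 14.8% and as many as before Foxf2 in 16.3%. Both strands were searched for TATAAA, known as the core element of some promoters. The letters TAATTA, which many homeodomains bind, were searched as well, and so was GGGCGG, the Sp1 element, which holds a CG itself. GGGCGG was found before Tbx20 and Foxf2 (32.7% of all windows hold it), while TATAAA (12.4%) and TAATTA (4.84%) were in none of the 3 windows. A match describes the letters of a window and is not a measured binding site.

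Pax3, a paired box gene of the neural crest and of muscle precursors, had 0.0261, 0.0514 and 0.0958 CPM in KO-labelled libraries, against 0.868, 0.871 and 0.975 CPM in WT libraries. The WT to KO-labelled ratio from 6 and 117 counts was 16.3 (95% counting interval 7.29 to 45.4), and the log2 difference -3.95 (SE 0.43, adjusted p = 8.31e-05). Msx2, a homeobox repressor downstream of BMP signals in skull and limb, had 0.809, 0.976 and 0.511 CPM in KO-labelled libraries, against 2.77, 3.31 and 3.38 CPM in WT libraries, a log2 difference of -2.02 (SE 0.24, adjusted p = 1.64e-04). Osr2, a zinc finger gene of palate and limb mesenchyme, had 0.862, 0.873 and 0.863 CPM in KO-labelled libraries, against 2.51, 1.98 and 2.12 CPM in WT libraries, a log2 difference of -1.34 (SE 0.20, adjusted p = 6.60e-04). Pax3 was thus near 0 in KO-labelled libraries, whereas Msx2 and Osr2 were lower but detected in each. Foxf2, a forkhead gene of palate and gut mesenchyme, had 6.92, 6.65 and 7.28 CPM in KO-labelled libraries, against 15.2, 15.6 and 14.8 CPM in WT libraries, a log2 difference of -1.13 (SE 0.09, adjusted p = 9.97e-06). Irx3, an Iroquois homeobox gene of the proximal limb, had 0.914, 1.23 and 1.15 CPM in KO-labelled libraries, against 2.80, 2.00 and 2.23 CPM in WT libraries, a log2 difference of -1.09 (SE 0.22, adjusted p = 0.00356). In each of these genes every KO-labelled value lay below every WT value. Foxf2 was the only 1 of the 8 above 10 CPM in WT libraries.

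Lhx9, a LIM homeobox gene of limb bud and gonad, was the gene that rose at least 2-fold. It had 2.22, 1.69 and 1.98 CPM in KO-labelled libraries, against 0.819, 0.544 and 1.19 CPM in WT libraries, a log2 difference of 1.21 (SE 0.29, adjusted p = 0.00888). The groups did not overlap, and the level was low in both. Without WT library 2 the log2 difference was 0.96, under 2-fold, and relative to the median of chromosome 1 it was 0.92 (adjusted p = 0.0347).

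**Figure D2:**
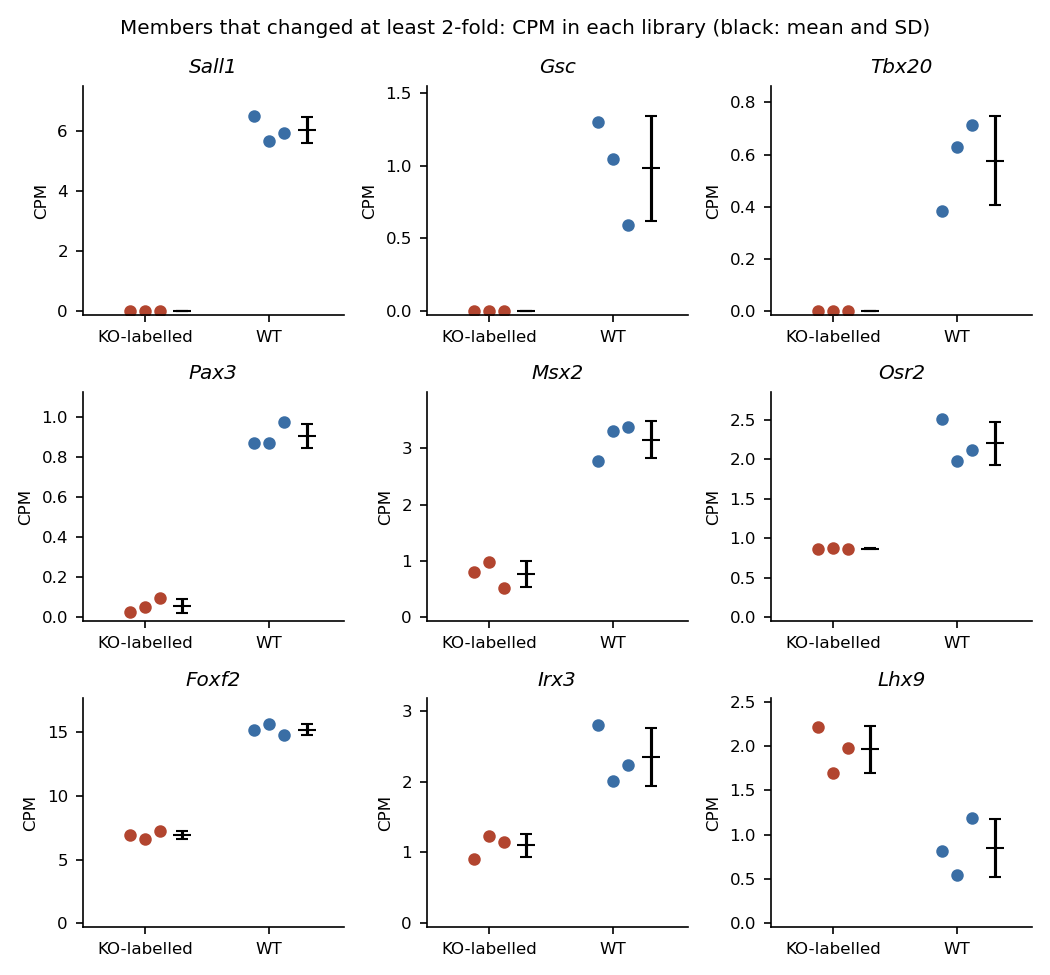
CPM in each library (y axis, linear) for the 9 patterning factors that changed at least 2-fold, KO-labelled libraries at the left and WT at the right of each panel, with mean and SD in black (n = 3 each). The groups do not overlap in any panel, and Sall1, Gsc and Tbx20 lie at 0 in all KO-labelled libraries.

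The most abundant factors per length were the same few in both groups. Prrx1, a paired-type homeobox gene of limb and craniofacial mesenchyme, led with 73.6 ± 4.09 CPM per kb in KO-labelled and 80.2 ± 1.67 CPM per kb in WT libraries (SD, n = 3). The next in KO-labelled libraries were Snai1 (43.8 ± 3.80 CPM per kb), Osr1 (35.1 ± 1.47), Snai2 (33.2 ± 1.65) and Prrx2 (27.8 ± 0.351). Of these, Osr1 and Snai2 differed by less than the sum of their SDs. In WT libraries the order was Snai1 (56.3 ± 5.74 CPM per kb), Prrx2 (51.1 ± 4.51), Osr1 (38.7 ± 1.31) and Snai2 (26.0 ± 1.00), where Snai1 and Prrx2 lay within their SDs of each other. Foxf2 stood at place 24 among the 53 genes in KO-labelled libraries and at place 15 in WT libraries, and Sall1 went with the genes without counts against place 31.

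**Figure D3:**
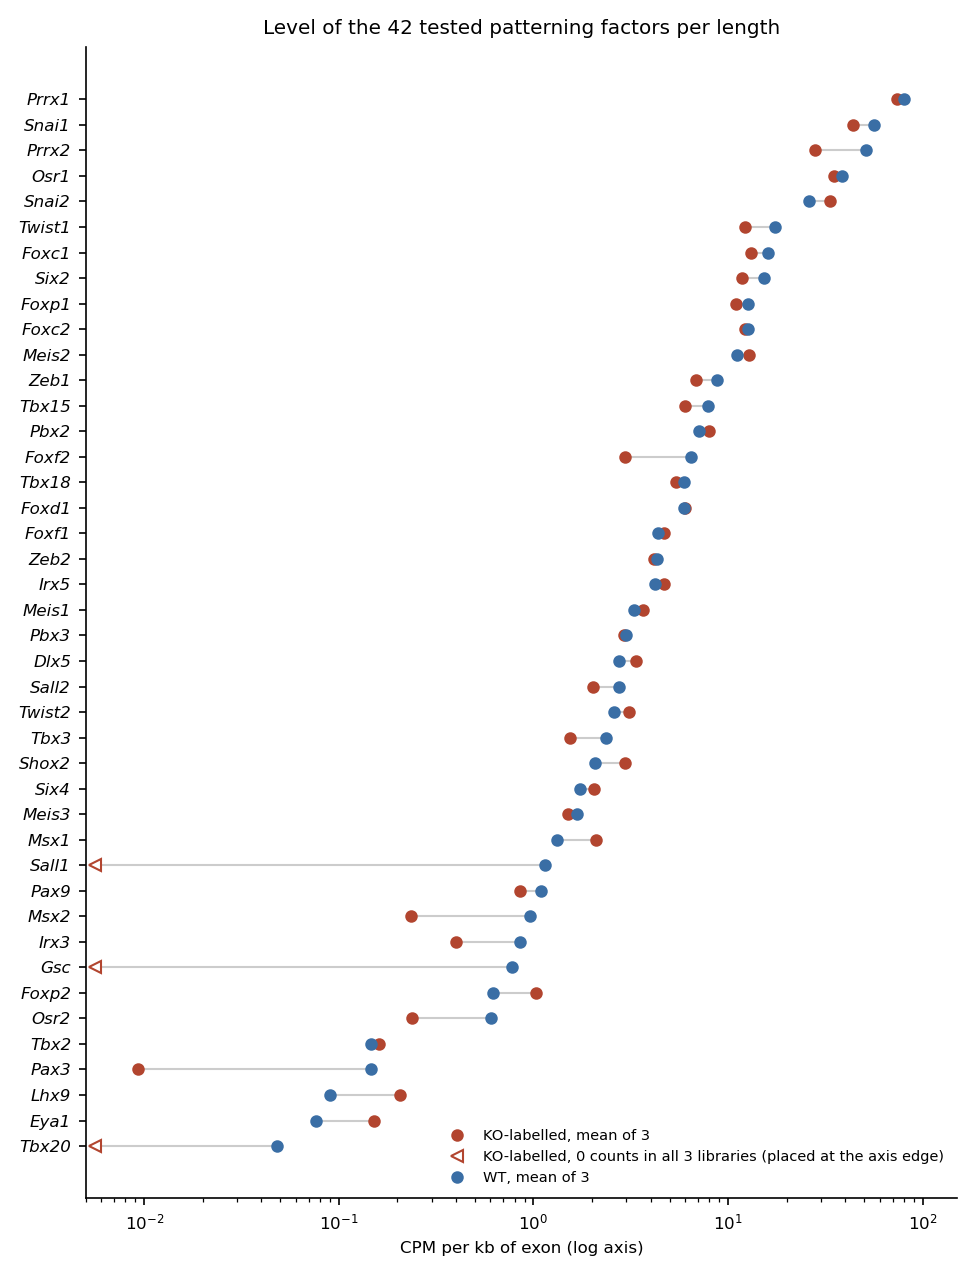
Mean level per length (CPM per kb of exon, log axis) of the 42 tested patterning factors in KO-labelled (red) and WT (blue) libraries, ordered by the WT level. Open triangles mark genes without any count in KO-labelled libraries and have no position on the axis, and Prrx1 is the highest factor in both groups.

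The other 11 genes did not pass the filter on low counts. Alx1, Barx1, Lhx8, Tbx4 and Tcf21 had no count in any library, and the rounded counts over a group were at most 9 for Alx4, Pitx1, Tbx5, Foxl2, Sall4 and Zic1. The limb-type genes Tbx4, Tbx5 and Pitx1, which tell hindlimb from forelimb, thus had at most 1 count over a group. Alx4 overlaps Ext2 on the other strand, a gene at 98.5 and 119 CPM in KO-labelled and WT libraries, and the strand setting of the counting is not given in the sources used here.

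Among the Meis and Pbx genes, TALE homeobox genes whose proteins are partners of Hox proteins, differences were small. The Iroquois genes Irx3 and Irx5 are of the TALE class too and are given apart, Irx3 with a log2 difference of -1.09. Meis2 had 165, 155 and 144 CPM in KO-labelled libraries, against 132, 128 and 140.1 CPM in WT libraries. Its log2 difference of 0.22 (SE 0.07, adjusted p = 0.0418) was the only call among the 5 Meis and Pbx genes. It missed the threshold on leaving out KO-labelled library 1 (adjusted p = 0.109) or 2 (0.109), or WT library 1 (0.0892) or 2 (0.18). Meis1 stood at 38.6 ± 3.27 CPM in KO-labelled and 34.6 ± 2.64 CPM in WT libraries, and the log2 differences of Meis1, Pbx2, Pbx3 and Meis3 were 0.16, 0.17, -0.04 and -0.14, none of which passed the test. Their SEs were 0.09, 0.09, 0.08 and 0.14.

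The paired-type homeobox genes of limb and head mesenchyme moved in both directions. Prrx2, a close relative of Prrx1, had 53.8, 55.0 and 55.0 CPM in KO-labelled libraries, against 109, 101 and 91.3 CPM in WT libraries, a log2 difference of -0.88 (SE 0.08, adjusted p = 2.05e-05). Prrx1 had 862, 772 and 810.0 CPM in KO-labelled libraries, against 868, 888 and 905 CPM in WT libraries, and its log2 difference of -0.12 (SE 0.08, adjusted p = 0.238) did not pass the test although the groups did not overlap. Shox2, a gene of proximal limb growth, had 9.71, 10.2 and 9.36 CPM in KO-labelled libraries, against 6.29, 6.49 and 7.70 CPM in WT libraries, a log2 difference of 0.51 (SE 0.11, adjusted p = 0.00569), with every KO-labelled value above every WT value. Shox2 overlaps Rsrc1 on the other strand, which stood at 38.9 and 35.7 CPM in KO-labelled and WT libraries.

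Msx1, a homeobox gene expressed beside Msx2 in limb and face, rose while Msx2 fell. It had 5.80, 6.01 and 7.73 CPM in KO-labelled libraries, against 4.46, 4.51 and 3.30 CPM in WT libraries, a log2 difference of 0.67 (SE 0.17, adjusted p = 0.0117), without overlap between the groups. Dlx5, a regulator of jaw and bone, had 7.63 ± 0.869 CPM in KO-labelled and 6.24 ± 0.342 CPM in WT libraries, and its log2 difference of 0.29 (SE 0.12, adjusted p = 0.0843) did not pass the test. Irx5, the neighbour of Irx3, stood at 14.7 ± 1.14 CPM in KO-labelled and 13.2 ± 0.927 CPM in WT libraries and did not pass either (adjusted p = 0.213). Pax9, a gene of sclerotome, teeth and palate, had 4.39, 4.06 and 4.54 CPM in KO-labelled libraries, against 5.71, 5.29 and 5.66 CPM in WT libraries, a log2 difference of -0.36 (SE 0.12, adjusted p = 0.0409), and this call was lost on leaving out any 1 library (adjusted p from 0.0651 to 0.113).

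Proteins of Six2 and its relatives bind DNA and act with the coactivator Eya1. Six2, which keeps nephron progenitors and also marks craniofacial mesenchyme, had 26.1, 23.9 and 25.2 CPM in KO-labelled libraries, against 35.7, 32.2 and 29.7 CPM in WT libraries, a log2 difference of -0.38 (SE 0.08, adjusted p = 0.00582). Eya1 had 1.15, 1.26 and 1.15 CPM in KO-labelled libraries, against 0.699, 0.457 and 0.642 CPM in WT libraries, with 129 and 77 counts over the groups and a log2 difference of 0.99 (SE 0.26, adjusted p = 0.0149). The groups did not overlap in either gene, Six2 being lower and Eya1 higher in KO-labelled libraries. The call of Eya1 did not hold when library 2 of either group was left out (adjusted p = 0.051 without that of the KO-labelled and 0.0665 without that of the WT group). Six4 stood at 22.2 ± 0.900 CPM in KO-labelled and 18.9 ± 1.24 CPM in WT libraries, a log2 difference of 0.24 (SE 0.08, adjusted p = 0.0356). It was not called without KO-labelled library 1, 2 or 3 (adjusted p = 0.0805, 0.0533 and 0.116) or WT library 2 or 3 (0.0793 and 0.0955).

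Of 5 T-box genes tested, 3 fell and none rose, beside 21.3% and 17.6% of all genes tested. Besides Tbx20, these were Tbx3 and Tbx15. Tbx3, a repressor that acts in limb, mammary and heart development, had 9.90, 10.2 and 10.7 CPM in KO-labelled libraries. In WT libraries it had 16.6, 14.3 and 15.7 CPM, a log2 difference of -0.60 (SE 0.09, adjusted p = 5.98e-04). Tbx15, a gene of skin and skeletal mesenchyme, had 23.4, 23.8 and 20.4 CPM in KO-labelled libraries, against 28.6, 28.6 and 31.0 CPM in WT libraries, a log2 difference of -0.38 (SE 0.08, adjusted p = 0.00437). All KO-labelled values of both genes lay below the WT values. Tbx18, of somite and ureter mesenchyme, stood at 25.6 ± 1.39 CPM in KO-labelled and 28.1 ± 1.70 CPM in WT libraries and Tbx2 at 0.582 ± 0.149 CPM in KO-labelled and 0.532 ± 0.162 CPM in WT libraries, and neither passed the test (adjusted p = 0.184 and 0.818). Tbx2 rested on 62 and 69 counts over the groups, and its log2 difference of 0.12 had an SE of 0.35.

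Among the forkhead genes, the close relatives Foxp2 and Foxp1 changed in opposite directions. Foxp2, known for roles in brain, lung and skeletal tissue, had 18.2, 16.5 and 15.7 CPM in KO-labelled libraries, against 9.54, 9.90 and 10.8 CPM in WT libraries, a log2 difference of 0.73 (SE 0.09, adjusted p = 2.35e-04), whereas its relative Foxp1 had 153, 148 and 150.5 CPM in KO-labelled libraries, against 169.7, 167 and 187 CPM in WT libraries, a log2 difference of -0.22 (SE 0.07, adjusted p = 0.0295). The groups did not overlap in either gene, but Foxp1 missed the threshold without KO-labelled library 2 (adjusted p = 0.095) or 3 (0.0855) and without WT library 2 (0.0618) or 3 (0.0877). Foxc1, a gene of mesoderm, eye and skull, had 72.2, 75.5 and 81.7 CPM in KO-labelled libraries, against 95.8, 91.8 and 93.6 CPM in WT libraries, a log2 difference of -0.29 (SE 0.07, adjusted p = 0.00773). Relative to the median of chromosome 13, where all 3 lie, Foxc1 was at -0.01, not called, Foxf2 at -0.85 and Foxd1 at 0.30. Foxd1, of kidney stroma, Foxc2, of lymphatic and skeletal mesenchyme, and Foxf1, of lung and gut mesenchyme, had log2 differences of 0.01, -0.06 and 0.11 and did not pass the test. Foxf1 and Foxc2 lie inside Gm20388, a long gene model on the same strand at 79.0 and 99.1 CPM in KO-labelled and WT libraries, so their counts are uncertain.

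Twist1, a bHLH factor that holds mesenchymal cells undifferentiated, had 19.2, 20.8 and 19.6 CPM in KO-labelled libraries, against 29.6, 27.0 and 28.5 CPM in WT libraries, a log2 difference of -0.51 (SE 0.07, adjusted p = 3.94e-04). Its relative Twist2 stood at 9.83 ± 0.603 CPM in KO-labelled and 8.18 ± 1.01 CPM in WT libraries, and the log2 difference of 0.26 (SE 0.12, adjusted p = 0.0992) did not pass the test. Among the other zinc finger genes, Sall2 had 9.79, 11.9 and 11.2 CPM in KO-labelled libraries, against 16.5, 14.8 and 13.3 CPM in WT libraries, a log2 difference of -0.44 (SE 0.11, adjusted p = 0.0117), a smaller loss than that of Sall1. Osr1, of intermediate mesoderm and body wall fibroblasts, stood at 72.5 ± 3.04 CPM in KO-labelled and 79.9 ± 2.70 CPM in WT libraries and did not pass (adjusted p = 0.123).

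Snail and Zeb factors repress E-cadherin in the transition from epithelium to mesenchyme. Snai1 had 74.2, 63.9 and 74.9 CPM in KO-labelled libraries, against 96.3, 97.0 and 80.6 CPM in WT libraries, a log2 difference of -0.36 (SE 0.09, adjusted p = 0.0129), and Snai2 had 70.6, 63.9 and 66.8 CPM in KO-labelled libraries, against 50.7, 54.7 and 52.4 CPM in WT libraries, a log2 difference of 0.35 (SE 0.07, adjusted p = 0.0035). The groups did not overlap in either gene, with Snai1 lower and Snai2 higher in KO-labelled libraries. Snai1 missed the threshold when library 2 of either group was left out (adjusted p = 0.058 without that of the KO-labelled and 0.0648 without that of the WT group). Zeb1 had 64.0, 71.0 and 75.5 CPM in KO-labelled libraries, against 88.6, 85.8 and 95.1 CPM in WT libraries, a log2 difference of -0.36 (SE 0.08, adjusted p = 0.00594), and Zeb2 stood at 82.7 ± 1.18 CPM in KO-labelled and 86.0 ± 10.6 CPM in WT libraries without passing the test (adjusted p = 0.652). Of 18 epithelial genes of the kind that Snail and Zeb repress, 16 were under the filter, so a median over the tested genes describes only a pair. Cdh1, the gene of E-cadherin, stood at 7.47 ± 1.47 CPM in KO-labelled and 2.22 ± 0.327 CPM in WT libraries, a log2 difference of 1.75 (SE 0.19, adjusted p = 7.21e-05), and Pkp1, a desmosomal plakophilin, at 2.77 ± 0.193 CPM in KO-labelled and 8.89 ± 0.164 CPM in WT libraries, a log2 difference of -1.68 (SE 0.12, adjusted p = 5.02e-06).

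In 14 cases exactly 2 tested genes of the list shared a family name. In 4 of these pairs the relatives were called in opposite directions, in 2 in the same direction, in 7 only 1 was called and in 1 neither was. With 38.9% of all genes tested called, nothing is read from these counts. The number of opposite pairs was 1 without KO-labelled library 2, 2 without KO-labelled library 3, 1 without WT library 2, 2 without WT library 3 and 2 in the test against the chromosome median. Of the summed CPM per kb of Msx1 and Msx2, Msx1 made up 89.7% ± 3.90 in KO-labelled and 57.6% ± 6.18 in WT libraries (SD, n = 3 each), while the sum was 2.34 ± 0.280 and 2.28 ± 0.184 CPM per kb. The sum thus differed by less than its spread while the share did not overlap between groups. Foxf1 made up 61.4% ± 0.359 of its sum with Foxf2 in KO-labelled and 40.2% ± 3.26 in WT libraries, a share that carries the uncertainty of the Foxf1 counts inside Gm20388. Snai1 made up 56.8% ± 1.41 of the Snai1 and Snai2 sum in KO-labelled and 68.3% ± 2.34 in WT libraries, with sums of 77.0 ± 5.20 and 82.4 ± 5.95 CPM per kb. For Prrx1 and Prrx2 the sum itself was lower, at 101 ± 3.78 against 131 ± 2.85 CPM per kb, and Prrx1 made up 72.5% ± 1.33 and 61.1% ± 2.60. Irx3 made up 7.81% ± 1.21 of the Irx3 and Irx5 sum in KO-labelled and 16.6% ± 1.43 in WT libraries. The share of the first gene overlapped between the groups in 1 pair, Pbx2 and Pbx3. Single genes already did not overlap in 51.4% of all genes tested. Shares of other gene pairs were not computed, so nothing is read from this count. With 3 libraries a group an exact permutation test of a share cannot go below p = 0.1.

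**Figure D4:**
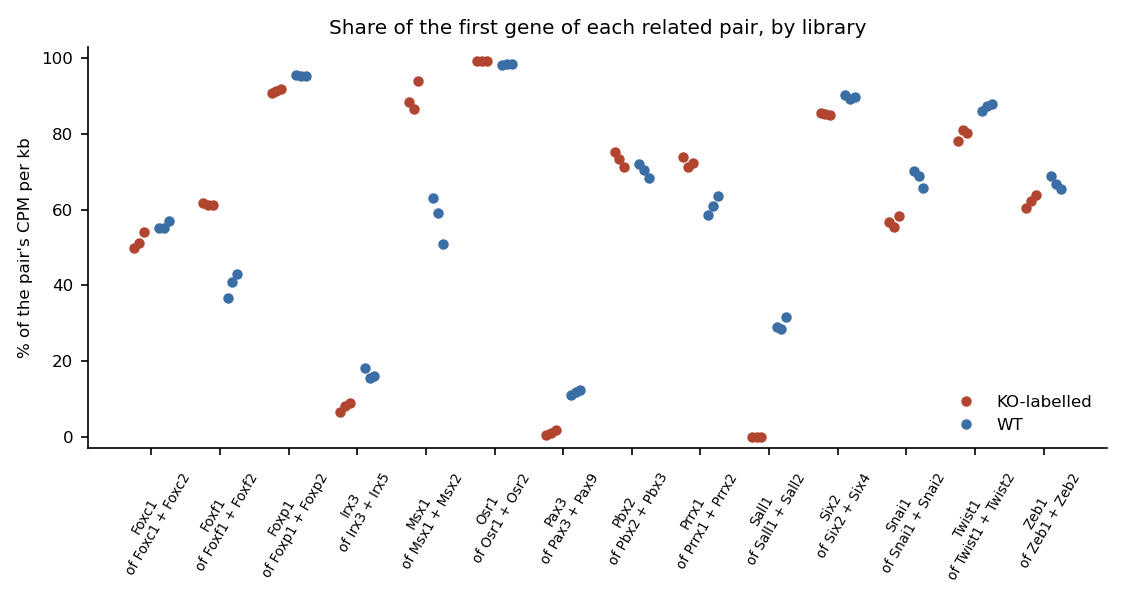
Share of the first-named gene in the summed CPM per kb of each of 14 related pairs (y axis, percent), 1 point a library, KO-labelled in red at the left and WT in blue at the right. Msx1 ranges from 86.7% to 94.1% in KO-labelled and from 50.9% to 63.0% in WT libraries, and Foxf1 from 61.2% to 61.8% and from 36.7% to 43.1%, the counts of Foxf1 being uncertain.

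Several of the genes lie close to each other, in 5 pairs within 1 Mb. On chromosome 13, Foxq1, a forkhead gene outside the list, Foxf2 and Foxc1 follow each other, with Foxc1 175 kb from Foxf2, and all 3 fell, Foxc1 only without correction for its chromosome. Foxq1 had 0.157, 0.180 and 0.0958 CPM in KO-labelled libraries, against 2.39, 2.35 and 2.09 CPM in WT libraries, a log2 difference of -3.93 (SE 0.28, adjusted p = 5.75e-06), so that the log2 differences were -3.93, -1.13 and -0.29 in the order along the chromosome. The matching cluster on chromosome 8 holds Foxf1, Foxc2 and Foxl1, all inside Gm20388 and so uncertain, which did not pass the test, and beside Foxf1 the long noncoding RNA gene Fendrr, transcribed away from it. Fendrr had 1.85, 1.34 and 1.50 CPM in KO-labelled libraries, against 0.313, 0.218 and 0.475 CPM in WT libraries. The log2 difference was 2.22 (SE 0.32, adjusted p = 5.36e-04). Fendrr also lies within the span of Gm20388, on the other strand. With the strand setting not given, its counts are uncertain as well. Irx3 and Irx5, 556 kb apart, differed in call, Irx3 being lower. Tbx3 was lower, and Tbx5, 148 kb away, had 1 count in KO-labelled and none in WT libraries, and Tbx2, 44.5 kb from Tbx4, did not pass the test.

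Around the genes with large changes, neighbours differed from place to place. Beside the counts that follow, 17.6% of all genes tested were called higher and 21.3% lower. Within 500 kb of Msx2, 3 of 4 tested neighbours fell, namely Ror2, a Wnt5a receptor, Nfil3, a leucine zipper repressor, and Sptlc1, a subunit of the enzyme that starts sphingolipid synthesis. Ror2 had 0.0522, 0.0257 and 0.0639 CPM in KO-labelled libraries, against 7.35, 7.77 and 6.04 CPM in WT libraries, a WT to KO-labelled ratio of 154 (95% counting interval 65.6 to 474) from 5 and 916 counts. The log2 difference was -1.96 (SE 0.09, adjusted p = 2.60e-07) for Nfil3 and -0.84 (SE 0.07, adjusted p = 1.19e-05) for Sptlc1. Near Sall1, the closest tested neighbour Cyld, a deubiquitinase 275 kb away, stood at 66.6 ± 1.93 CPM in KO-labelled and 77.8 ± 6.82 CPM in WT libraries, and Nkd1, a Wnt inhibitor 432 kb away, at 0.0663 ± 0.0361 CPM in KO-labelled and 1.87 ± 0.406 CPM in WT libraries, log2 differences of -0.22 and -4.78. The call of Cyld was lost on leaving out any library but WT library 1, with adjusted p from 0.067 to 0.16, and against the chromosome median (adjusted p = 0.067). None of the 8 tested neighbours of Gsc and none of the 3 of Irx3 was called, while all 3 calls among the 6 near Pax3 were higher in KO-labelled libraries, Farsb by 0.27, Acsl3 by 0.77 and Utp14b by 0.82. Farsb was not called without KO-labelled library 2 (adjusted p = 0.072) or 3 (0.0612) or WT library 2 (0.0816), and relative to the median of chromosome 1 the 3 genes stood at -0.02, 0.48 and 0.53, Farsb without a call. The 2 called neighbours of Tbx20, Dpy19l1 and Herpud2, had log2 differences of -0.66 and -0.31, and -0.50 and -0.15 relative to their chromosome, Herpud2 then without a call. Near Osr2, 1 of 5 was called, Vps13b (0.32), and near Lhx9, 2 of 3, Dennd1b (0.39) and 2310009B15Rik (0.36). Relative to the median of chromosome 1 the last 2 genes stood at 0.11 and 0.07, neither called (adjusted p = 0.355 and 0.643). Leaving out 1 library ended the call of Vps13b in 4 of 6 cases (adjusted p from 0.0553 to 0.111) and that of 2310009B15Rik in 3 of 6 (0.0599 to 0.0974).

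**Figure D5:**
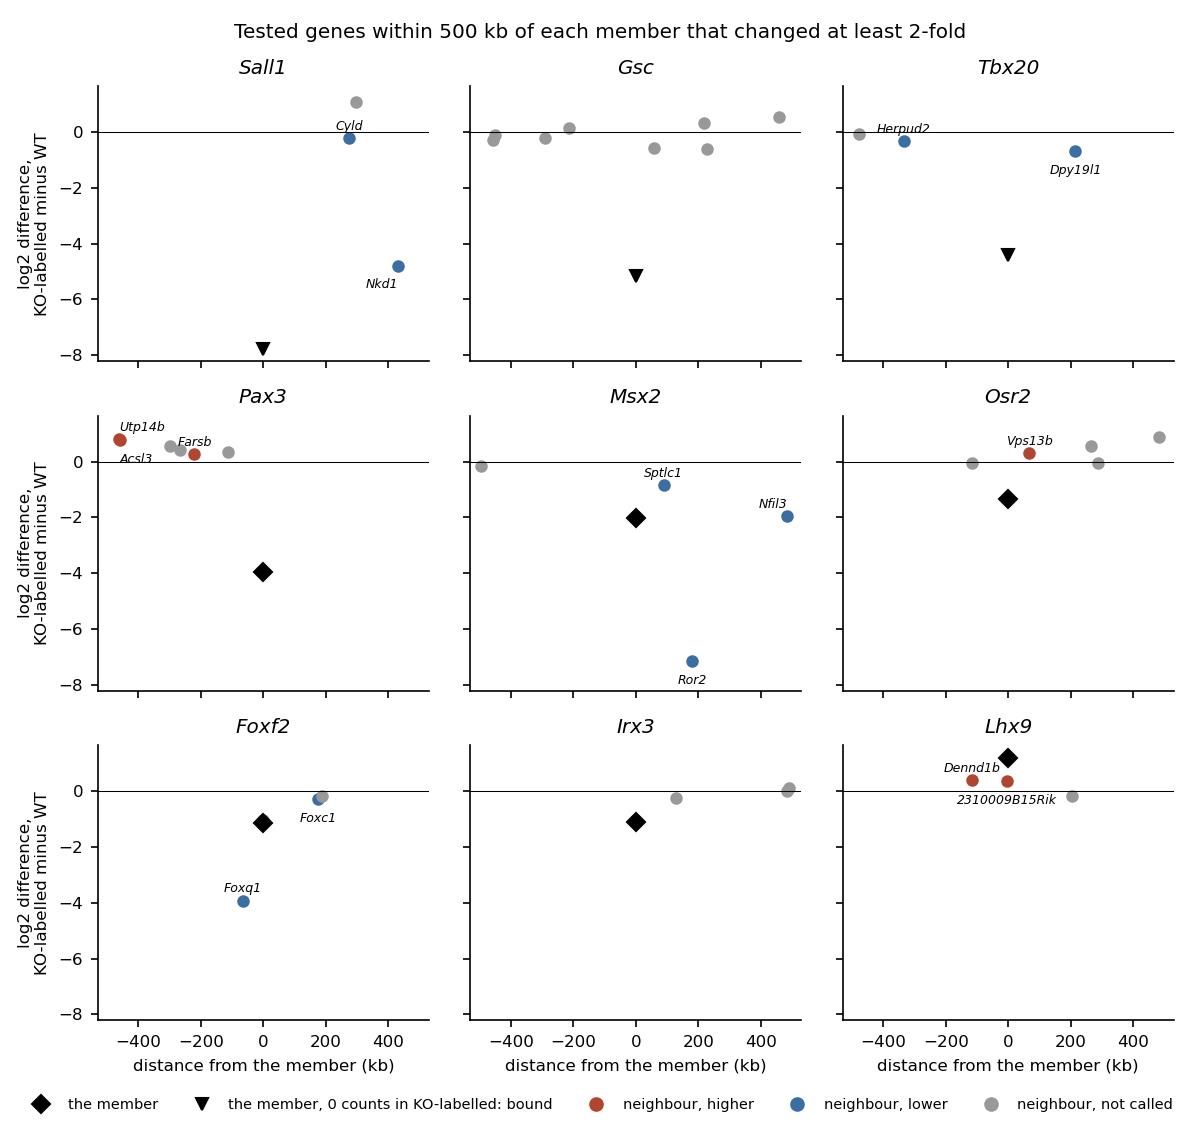
Log2 difference (y axis, KO-labelled minus WT) of tested genes within 500 kb of each factor that changed at least 2-fold, against distance from it in kb, positive in the direction of its transcription. Black symbols at 0 are the factor itself, with triangles for bounds. Ror2 near Msx2, Nkd1 near Sall1 and Foxq1 near Foxf2 are the neighbours that lie furthest from 0.

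Relatives from the same families that are not in the list of 53 were counted from a second list. Of 25 forkhead genes, 17 were tested, 3 rose and 6 fell, with a median log2 difference of -0.18 beside 0.01 over all genes tested. Besides Foxq1, Foxo3, a stress-responsive factor, had a log2 difference of -1.24 (SE 0.11). Of 10 T-box genes, 4 were tested, 1 rose and 1 fell, with a median of -0.03. Tbx1, a pharyngeal gene of the DiGeorge syndrome region in humans, had 1.15, 1.10 and 0.958 CPM in KO-labelled libraries, against 19.9, 15.3 and 15.3 CPM in WT libraries, a log2 difference of -3.96 (SE 0.16, adjusted p = 1.13e-07). The brachyury gene T, a mesoderm regulator, had 128 counts in KO-labelled against 3 in WT libraries, a KO-labelled to WT ratio of 50.9 (95% counting interval 17.0 to 250.1).

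Of 11 further TALE genes, 9 were tested, none rose and 4 fell, with a median of -0.17. The log2 differences were -1.07 (SE 0.12) for Irx1, -0.74 (SE 0.11) for Mkx, a tendon regulator, and -0.44 (SE 0.06) for Irx2. Relative to its chromosome Irx2 was at -0.15 and not called (adjusted p = 0.099). Named after its values were seen, Pknox2 had the largest fall of the 4, -2.06 (SE 0.43, adjusted p = 0.00429). It rested on 22 counts in the KO-labelled and 112 in the WT group. Of 30 other homeobox and Pax genes and relatives of Six2 and Eya1, 12 were tested, none rose and 6 fell, with a median of -0.37, and the log2 differences were -1.07 (SE 0.12) for Lhx6, -0.57 (SE 0.11) for Dlx1 and -0.89 (SE 0.17) for En1, a gene of ventral limb ectoderm and of dermal fibroblasts. Scx, the tendon gene scleraxis, was the 1 gene tested of 9 bHLH and Meox genes and fell by 1.49 on the log2 scale. Of 11 zinc finger relatives, 5 were tested, 2 rose and 3 fell, with a median of -0.33. Zic2, a gene of neural tube and limb, had 0.0261, 0.0514 and 0.0319 CPM in KO-labelled libraries, against 3.57, 3.22 and 2.64 CPM in WT libraries, a WT to KO-labelled ratio of 85.3 (95% counting interval 33.1 to 314), and Zic5, its neighbour on chromosome 14, a ratio of 50.3 (95% counting interval 13.6 to 420.0) from 2 and 120 counts. Gli1, a target of Hedgehog signalling, had 3.37, 2.64 and 3.16 CPM in KO-labelled libraries, against 0.506, 0.522 and 0.309 CPM in WT libraries, a log2 difference of 2.77 (SE 0.25, adjusted p = 2.48e-05). These counts stand beside 17.6% of all genes tested called higher and 21.3% lower.

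Signals that act on these factors in limb and other mesenchyme were also counted. Of 21 genes, 12 were tested, 2 rose and 9 fell, beside 17.6% and 21.3% of all genes tested. The median log2 difference was -1.02, beside 0.01 over all genes tested. This list too was chosen with earlier results of these data known. Fgf10, the limb bud growth factor, stood at 2.19 ± 0.141 CPM in KO-labelled and 20.1 ± 1.49 CPM in WT libraries, a log2 difference of -3.19 (SE 0.11, adjusted p = 4.47e-08). Named after their values were seen, Bmp4, Wnt5a and Fgf18, ligands of the BMP, Wnt and FGF pathways, had log2 differences of -1.17 (SE 0.07), -1.03 (SE 0.09) and -1.16 (SE 0.31), and Fgfr2, an FGF receptor, one of 0.74 (SE 0.07). Likewise named later, Nog, the BMP antagonist noggin, had 0 against 54 counts. Ptch1, the Hedgehog receptor and a target of the pathway, stood at 52.2 ± 5.43 CPM in KO-labelled and 9.67 ± 0.551 CPM in WT libraries, a log2 difference of 2.43 (SE 0.10, adjusted p = 1.09e-07). Of 18 cofactors and dimer partners, 16 were tested, 1 rose and 6 fell, none at least 2-fold, with a median of -0.16. The share called, 43.8%, is near the 38.9% of all genes tested. Tle3, a Groucho corepressor, differed by -0.64 (SE 0.10), Tcf12, a dimer partner of Twist proteins, by -0.32 (SE 0.06) and Tle1 by 0.44 (SE 0.09). Relative to its chromosome Tcf12 was at -0.15 and not called (adjusted p = 0.108).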

How the data were processed

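PolyA RNA of 3 KO-labelled and 3 WT 10T1/2 libraries was analysed from 1 gene table. The authors deposited expected counts per gene from RSEM, per the submitters' processing notes, and 17.9% of values are not whole, so they were rounded. The strand setting is not given in the sources used here. Gene names and lengths came from GENCODE M21 (GRCm38), which matched 55230 of 55471 gene IDs and left 241 unmatched. Total counts were 32072817 to 46321967 per library. Genes were kept by filterByExpr of edgeR 4.0.16 (at least 10 counts, 15 in total), normalized with TMM and tested with the quasi-likelihood F test in R 4.3.3, with Benjamini-Hochberg adjustment over 15454 genes and a threshold of 0.05. CPM are on TMM-scaled library sizes. Bounds use a floor of 3 counts over a group, and 95% intervals of count ratios are exact binomial and cover counting error only. The fit was tested on simulated data. The labels give no origin of the replicates beyond the word biological, so p-values cover only how far these libraries vary, which may be technical. The 53 genes, the further lists and the tests were chosen with earlier results of these data known. Genes named are all 53 and up to 3 genes with the smallest adjusted p in each further list, while the cell type markers named, neighbours within 500 kb, Foxl1, Fendrr and the genes so marked were chosen after their values were seen. Alternatives were other normalizations, DESeq2 1.42.0, other filters, each library left out, a replicate block, subtraction of the chromosome median and, added after the data were seen, a test against that median, entered as an offset.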

Additional observations from a re-analysis of the deposited data

How the results depend on the processing

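Of the 27 patterning factors called, 20 kept their direction and call under every alternative that gave a value, and the exceptions were Meis2, Pax9, Six4, Foxp1, Eya1, Snai1 and Foxc1. Subtracting the chromosome median shifts the value and keeps the p-value, so it can end a call only by a change of sign, and a test against that median with its own p was added after the data were seen. The number called higher, 8 in the main test, was 5 to 8 on leaving out 1 library, with 5 without KO-labelled library 2 or WT library 2. The number higher by at least 2-fold, 1 in the main test, was 0 to 2 on leaving out 1 library, 2 with library size alone, 2 when at least 1 CPM in 3 libraries was required, 0 with the chromosome median subtracted and 0 in the test against it. Eya1, at 0.99 in the main test, was the gene added with library size alone and with the 1 CPM filter. The number lower by at least 2-fold, 8, was 5 when at least 1 CPM in 3 libraries was required, because Pax3, Gsc and Tbx20 then went untested. Of 36 other called genes put through the alternatives, 8 lost the call in at least 1 alternative, Farsb, Cyld, Vps13b and 2310009B15Rik and, only in the test against the chromosome median, Dennd1b, Herpud2, Tcf12 and Irx2. Farsb was at -0.0187 with that median subtracted and -0.0187 in the test against it. Related pairs called in opposite directions, 4 in the main test, were 1 to 5 on leaving out 1 library, 2 with a replicate block and 2 in the test against the chromosome median. Libraries of the same number did not deviate together (correlations of 0.0224, -0.0811 and -0.0343), so the numbers were not taken as pairs. With a replicate block 6 factors were higher and 17 lower, and over all features tested there were 2213 genes higher and 2781 genes lower. That fit lost Meis2, Pax9, Six4 and Foxp1. Genes with under 10 counts in a group, among the called factors Sall1, Gsc, Tbx20 and Pax3, are limited by depth. The 11 untested factors allow no statement on change.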
